A study of Mus musculus with 6 samples.

Results

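Interferon-stimulated genes were measured in mouse leukaemia cells after treatment of the host with PF-670462, which inhibits the casein kinase 1 isoforms delta and epsilon, or with its vehicle. The set holds 44 genes of the 54232 in the count table: transcription factors, nucleic acid sensors, antiviral effectors, interferon-induced GTPases, peptide loading genes and a feedback inhibitor. They were taken by name from a list of well-known interferon-stimulated genes. Of these, 43 matched the table's symbols, and Ddx58, which the table calls Rigi, was matched by its Ensembl identifier. There were 35 members with enough counts for a test, 7 with too few, and 2, Oas1a and Ifi44, with 0 counts in all 6 libraries.

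Leukaemic B cells were sorted from spleen, and their RNA was sequenced from the 3' ends of transcripts. The hosts were WT C57BL/6J mice, which kept their own immune cells. They had received a peritoneal injection of spleen mononuclear cells, nearly all of them leukaemic, from terminally ill Eµ-TCL1 mice; in that strain the Eµ enhancer drives the TCL1 oncogene in B cells. In the CK1i group (3 libraries) the hosts were given PF-670462 at 50 mg/kg by mouth in 10% kolliphor/PBS. In the CTRL group (3 libraries) they were given 10% kolliphor/PBS alone. Dosing began 5 days after the injection and alternated 5 days of treatment with 2 of recovery, for 8 weeks in all, until CTRL mice were terminally leukaemic. Ages and the number of donor mice are not given in the sources used here. Nor is it stated that the libraries of a group came from different mice, so the p-values describe the spread among these libraries, which may be technical.

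Interferons are secreted proteins that cells make when they sense foreign or misplaced nucleic acid. Type I interferon acts through its receptor, Janus kinases and a complex with STAT2 and IRF9 that binds the interferon-stimulated response element (ISRE). Interferon gamma acts through its own receptor on promoters with gamma-activated sites (GAS). The genes switched on in this way block viruses, load peptides for T cells and restrain the signal itself, and many of them have a low tonic level without infection.

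Libraries held 2472064 to 3105137 counts in CK1i and 2472320 to 3064371 counts in CTRL. Levels are given as CPM, counts scaled to a common library size by TMM. With 0 counts in all libraries a gene could still average 0.176 CPM, the worth of 3 counts over the 6 libraries together. For a single library this floor is higher, since 1 count is worth 0.322 to 0.405 CPM there before TMM scaling. B-cell and CLL markers were present throughout, with summed levels of 5880 to 6237 CPM in the CK1i libraries, against 5879 to 6237 CPM in the CTRL libraries, although Cd79a was low at 8.88 to 14.4 CPM in CK1i and 12.1 to 17.6 CPM in CTRL. On the first principal component of all tested genes CTRL replicate 1 stood apart, at 31.4 against -12.4 to 4.68 for the others. All libraries carry 1 batch label.

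No member passed the threshold, an adjusted p under 0.05 over all 10067 tested genes, in edgeR's quasi-likelihood test of CK1i against CTRL; among all genes 0.00% were called higher and 0.00% lower. The smallest adjusted p of a member was 0.84, and limma-voom and DESeq2 also called 0 members. An unadjusted p under 0.05 was reached by 3 of 35 members, Gbp2, Gbp3 and Gbp7, each with higher values in CK1i. That is 8.57% of the tested members, where 4.70% of all tested genes reached it (2.70% higher and 2.00% lower). Between the groups 19 members had higher and 16 lower values in CK1i, which is 54.3% higher beside 48.8% of all tested genes. Their median log2 fold change was 0.02, beside -0.01 for all tested genes, and the single values ran between -0.39 for Bst2 and 0.59 for Xaf1, with a median standard error (SE) of 0.20. For 28 of the 35 the 95% interval lay wholly between -1 and 1 on the log2 scale, 80.0% beside 84.5% of all tested genes. It was wider for Irf7, Ifih1, Oas2, Rsad2, Xaf1, Tap2 and Socs1, most of them genes with few counts.

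**Figure D1:**
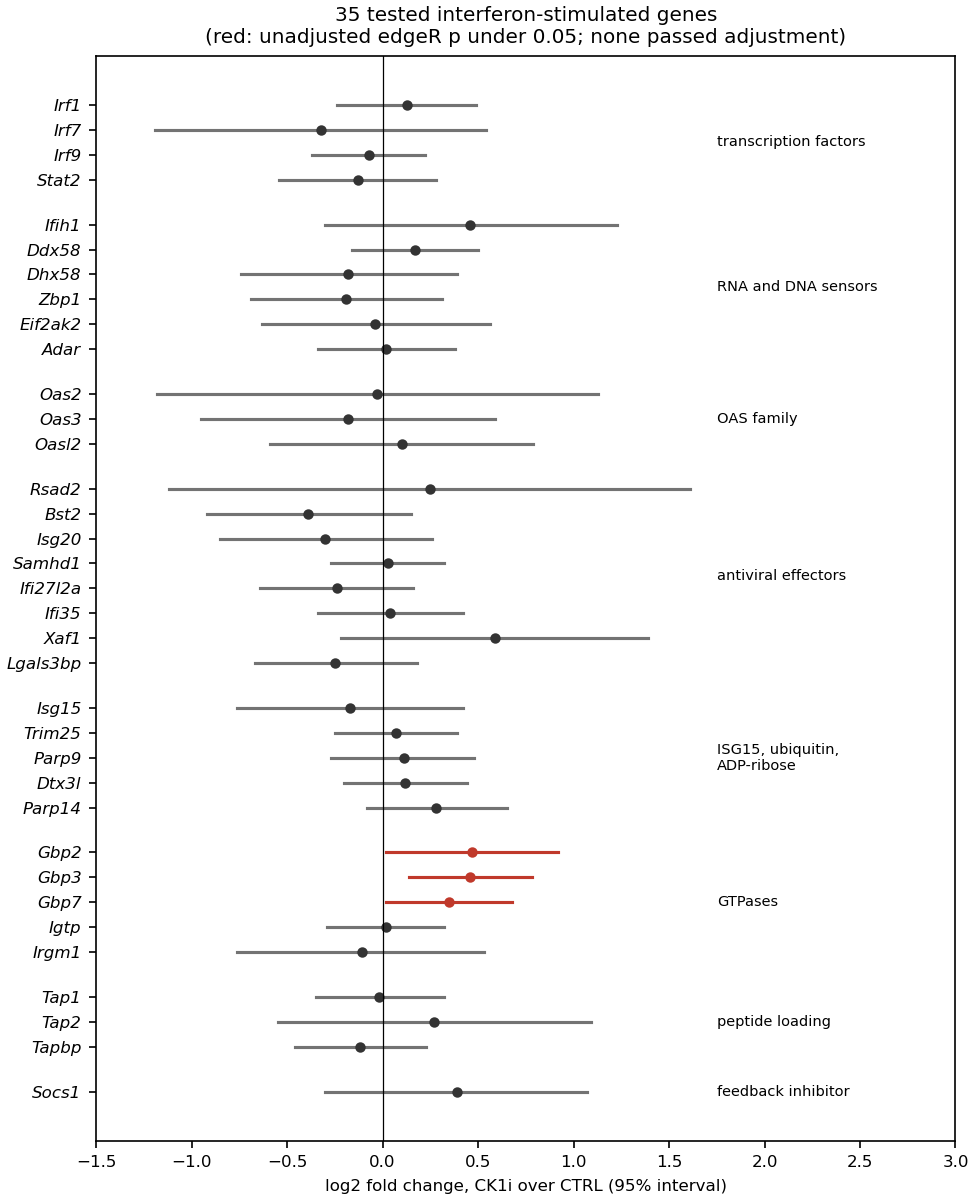
Log2 fold change of CK1i over CTRL for the 35 tested members, grouped by role, with 95% intervals from edgeR's quasi-likelihood fit. The intervals of Gbp2, Gbp3 and Gbp7, in red, lie above 0 and those of the other members include 0; no member passed after adjustment over all tested genes.

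The guanylate-binding proteins differed most in relation to their error. These large GTPases are induced above all by interferon gamma and attack the membranes of vacuoles and microbes inside cells. Gbp3 had 63.2, 62.0 and 58.55 CPM in CK1i, against 40.8, 46.7 and 46.1 CPM in CTRL, for replicates 1 to 3 of each group. The lowest CK1i library lay above the highest CTRL library for Gbp3, as happened for 5.22% of all tested genes (4.48% had all CK1i libraries below). Gbp3 averaged 61.2 ± 2.40 CPM in CK1i, against 44.5 ± 3.23 CPM in CTRL (SD, n = 3 each). The log2 fold change was 0.46 ± 0.15 (SE; 95% interval 0.14 to 0.78; edgeR, adjusted p = 0.84).

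Gbp2 had 86.9, 78.3 and 103.5 CPM in CK1i, against 68.5, 81.8 and 43.7 CPM in CTRL. Gbp7 had 91.1, 113 and 111 CPM in CK1i, against 72.1, 95.8 and 80.1 CPM in CTRL. For both genes CTRL replicate 2 lay above the lowest CK1i library, so the groups overlapped. The log2 fold changes were 0.47 ± 0.21 for Gbp2 and 0.35 ± 0.15 for Gbp7 (SE; edgeR, adjusted p = 1 for each). Summed over the 3 genes, the levels were 241, 253.5 and 273 CPM in CK1i, against 181, 224 and 169.9 CPM in CTRL. These genes were put together because their own values were higher in CK1i, so the sum restates that choice. With each library left out in turn, the log2 fold change of Gbp3 stayed between 0.40 and 0.49, always at an unadjusted p under 0.05. Gbp2 depended more on single libraries, with 0.25 without CTRL replicate 3, its lowest library, and 0.67 without CTRL replicate 2. Gbp7 ranged between 0.25 without CTRL replicate 1 and 0.46 without CTRL replicate 2. The unadjusted p stayed under 0.05 for Gbp2 only without CK1i replicate 2 or CTRL replicate 2, and for Gbp7 only without CK1i replicate 1 or CTRL replicate 2.

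**Figure D2:**
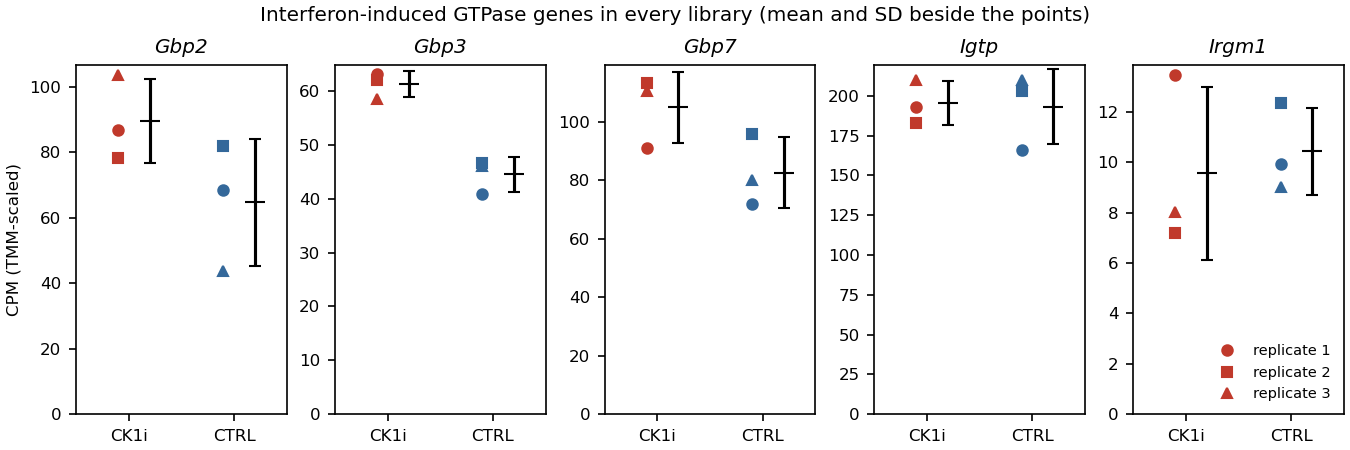
Levels in CPM (counts scaled by TMM) of the 5 tested GTPase members, CK1i libraries in red left of CTRL libraries in blue; symbols give the replicate, and the mean and SD (n = 3) stand beside the points. The groups are apart for Gbp3 and overlap for Gbp2, Gbp7, Igtp and Irgm1.

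Gbp7, Gbp3 and Gbp2 lie in this order on the plus strand of chromosome 3, between 142530342 and 142638008 (GRCm38, GENCODE annotation). Gbp2b lies between Gbp3 and Gbp2. The other protein-coding genes within 200000 bases were read after these values were known. Gbp5, the neighbour on one side, had 12.2, 22.2 and 18.45 CPM in CK1i, against 8.165, 16.8 and 19.4 CPM in CTRL, a log2 fold change of 0.25 ± 0.31 (SE). Farther out, Gtf2b, a general transcription factor gene, had 0.17 ± 0.19, Pkn2, a kinase gene, -0.01 ± 0.16, and Pdlim5, a cytoskeletal adaptor gene, 0.01 ± 0.20. Gbp2b, the close copy of Gbp2 that lies inside the block, held 3 counts, and Kyat3, beyond Gbp2, held 41. Both were too few to test. In the second Gbp cluster, on chromosome 5, Gbp4 had 0.38 ± 0.27, Gbp8 -0.29 ± 0.29 and Gbp9 0.18 ± 0.25, while Gbp6 and Gbp10 had 0 counts and Gbp11 had 2. The intervals of all these other genes that could be tested include 0. Gbp2 and Gbp7 overlap only genes with 0 counts, and Gbp3 overlaps none.

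The promoter windows of these 3 genes are shown because each holds an ISRE core close to its start. They come from RefSeq (GRCm38.p6) and run 250 bases before to 50 bases after an annotated start. Capitals mark matches to the ISRE core GAAANNGAA, or TTCNNTTTC on the other strand, and to the GAS motif TTCNNNGAA, which reads the same on both strands. In Gbp2 the ISRE match begins 58 bases before the start. Gbp3 has an overlapping pair of ISRE matches, which begin 44 and 38 bases before it; the window of its second annotated start, at chr3:142560106-142560405, has no ISRE or GAS match. Gbp7 has an ISRE match 52 bases before it and GAS matches at 106 and 87 bases. Such close ISRE matches are not particular to these genes. The GTPase members Igtp, at 34 bases, and Irgm1, at 30 and 24 bases, have them too.
Gbp2, chr3:142620413-142620712, plus strand: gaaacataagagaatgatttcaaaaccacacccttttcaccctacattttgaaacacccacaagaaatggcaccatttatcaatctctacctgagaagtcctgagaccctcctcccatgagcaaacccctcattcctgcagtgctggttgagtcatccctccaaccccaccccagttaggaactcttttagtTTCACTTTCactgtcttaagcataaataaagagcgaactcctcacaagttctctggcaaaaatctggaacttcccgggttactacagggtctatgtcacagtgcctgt
Gbp3, chr3:142559794-142560093, plus strand: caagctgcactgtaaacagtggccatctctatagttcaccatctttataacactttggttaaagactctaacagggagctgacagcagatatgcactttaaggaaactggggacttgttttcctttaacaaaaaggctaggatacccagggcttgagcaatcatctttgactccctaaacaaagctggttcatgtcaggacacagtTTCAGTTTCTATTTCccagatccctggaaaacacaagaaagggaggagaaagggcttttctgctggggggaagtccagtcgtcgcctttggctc
Gbp7, chr3:142530086-142530385, plus strand: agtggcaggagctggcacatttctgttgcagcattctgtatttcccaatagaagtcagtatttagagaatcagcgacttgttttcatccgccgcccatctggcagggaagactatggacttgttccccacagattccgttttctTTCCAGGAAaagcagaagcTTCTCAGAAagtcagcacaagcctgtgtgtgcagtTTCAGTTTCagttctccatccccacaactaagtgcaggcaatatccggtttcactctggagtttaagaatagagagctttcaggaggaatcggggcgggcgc

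The immunity-related GTPases, which work on pathogen vacuoles together with the Gbp proteins, had levels that overlapped between the groups. Igtp (Irgm3), a regulatory member, had 193, 183 and 210.1 CPM in CK1i, against 166, 203 and 210.0 CPM in CTRL. Irgm1, another regulatory member with a role in autophagy, had 13.5, 7.18 and 8.02 CPM in CK1i, against 9.94, 12.4 and 9.01 CPM in CTRL. For Igtp the highest libraries were replicate 3 of each group, and for Irgm1 CK1i held both the highest and the lowest library. The log2 fold changes were 0.02 ± 0.14 for Igtp (SE; interval -0.29 to 0.32) and -0.11 ± 0.30 for Irgm1 (interval -0.76 to 0.53). Iigp1, an effector member, was barely detected, with 0, 1 and 2 counts in CK1i, against 0, 1 and 0 counts in CTRL. Igtp overlaps Irgm2 on the same strand, so its 3277 counts and the 192 of Irgm2, which had a log2 fold change of 0.60 ± 0.32, are uncertain.

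Among the transcription factors 1 of 4 had a higher value in CK1i. Irf1, which interferon gamma induces through a GAS, had 292, 220.2 and 323 CPM in CK1i, against 307, 224 and 234 CPM in CTRL. In each group replicate 2 was the lowest library, and the log2 fold change was 0.13 ± 0.17 (SE; edgeR, adjusted p = 1). Irf9 and Stat2, partners in the complex that binds the ISRE, had -0.07 ± 0.14 and -0.13 ± 0.19. Irf7, which amplifies type I interferon production, had 6.91, 2.94 and 7.22 CPM in CK1i, against 6.39, 10.4 and 4.67 CPM in CTRL, with a log2 fold change of -0.32 ± 0.40. Irf7 overlaps Phrf1 on the opposite strand, which held 1840 counts beside 106 for Irf7; the strand setting of the authors' counting is unknown here, so reads of opposite-strand partners cannot be told apart.

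Socs1, which encodes an inhibitor of Janus kinases and so restrains the response, had 15.1, 8.48 and 21.7 CPM in CK1i, against 13.8, 9.18 and 11.0 CPM in CTRL. Its highest library was CK1i replicate 3 and its lowest CK1i replicate 2. Its log2 fold change was 0.39 ± 0.32 with all libraries (SE; edgeR, adjusted p = 1), 0.04 without CK1i replicate 3 and 0.68 without CK1i replicate 2, where the unadjusted p was under 0.05 and the adjusted p = 1 in edgeR.

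The windows of Irf1 and Socs1 are shown as contrasting promoters of a transcription factor and a feedback gene. In that of Irf1 the capitals mark 1 GAS match, 90 bases before the start, with no ISRE core; the window of a second annotated start of Irf1 has neither motif. In that of Socs1 they mark an overlapping pair of ISRE cores, at 83 and 77 bases.
Irf1, chr11:53769764-53770063, plus strand: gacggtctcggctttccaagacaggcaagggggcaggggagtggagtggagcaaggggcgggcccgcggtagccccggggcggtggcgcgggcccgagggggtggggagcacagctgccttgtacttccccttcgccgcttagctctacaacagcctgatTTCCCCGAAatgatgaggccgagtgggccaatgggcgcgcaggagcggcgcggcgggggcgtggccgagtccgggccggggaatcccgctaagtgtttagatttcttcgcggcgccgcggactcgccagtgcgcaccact
Socs1, chr16:10785487-10785786, minus strand: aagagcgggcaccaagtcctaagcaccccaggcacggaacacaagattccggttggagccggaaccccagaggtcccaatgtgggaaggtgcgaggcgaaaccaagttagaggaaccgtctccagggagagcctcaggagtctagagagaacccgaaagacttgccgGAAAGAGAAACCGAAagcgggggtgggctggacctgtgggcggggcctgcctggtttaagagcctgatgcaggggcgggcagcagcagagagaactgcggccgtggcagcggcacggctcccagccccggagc

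The nucleic acid sensors had higher values in CK1i for 3 of 6 and lower values for 3. Ddx58, which encodes the RNA sensor RIG-I, had 151, 172 and 197 CPM in CK1i, against 177.5, 148.5 and 135.5 CPM in CTRL. Its log2 fold change was 0.17 ± 0.15 (SE; edgeR, adjusted p = 1), and 0.06 without CK1i replicate 3, its highest library. Ifih1, the gene of the related sensor MDA5, had 4.935, 6.52 and 10.8 CPM in CK1i, against 5.68, 4.79 and 5.34 CPM in CTRL, a log2 fold change of 0.46 ± 0.36. CK1i replicate 3 was the highest library for both, and also for Eif2ak2 and Adar. Eif2ak2 encodes the RNA-activated kinase PKR and had -0.04 ± 0.28; Adar encodes an enzyme that edits double-stranded RNA and had 0.02 ± 0.17. Dhx58, the gene of the regulator LGP2, had -0.18 ± 0.26, and Zbp1, a sensor of Z-form nucleic acid, -0.19 ± 0.23.

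Several classic interferon-stimulated genes had few counts in both groups. In the OAS family, whose enzymes make the messenger that activates RNase L, Oas1a had 0 counts and Oasl1 had 54 in all. Oasl2 had 5.92, 6.20 and 8.02 CPM in CK1i, against 6.035, 4.79 and 7.68 CPM in CTRL. The groups overlapped, and the log2 fold change was 0.10 ± 0.32 (SE; edgeR, adjusted p = 1). Oas2 and Oas3 had -0.03 ± 0.54 and -0.18 ± 0.36. Isg15, a ubiquitin-like modifier and one of the most strongly induced genes in an interferon response, had 9.87, 7.50 and 9.22 CPM in CK1i, against 12.1, 9.18 and 8.68 CPM in CTRL, a log2 fold change of -0.17 ± 0.28. Usp18, which removes ISG15 and restrains the type I receptor, had 5, 7 and 13 counts in CK1i, against 5, 8 and 7 counts in CTRL.

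The IFIT genes, whose proteins bind foreign RNA, had too few counts for the test. Ifit2 had 6, 10 and 4 counts in CK1i, against 2, 3 and 1 counts in CTRL, so that the groups did not overlap. With no filter on low counts its log2 fold change was 1.63 ± 0.69 (SE; edgeR, adjusted p = 0.83), at an unadjusted p under 0.05. Ifit1 had 7, 5 and 17 counts in CK1i, against 5, 16 and 7 in CTRL, and Ifit3 had 7, 8 and 20 counts in CK1i, against 6, 8 and 11 in CTRL. Both had their highest level in CK1i replicate 3, in Ifit1 closely followed by CTRL replicate 2. Rtp4, a chaperone gene with antiviral activity, had 4, 3 and 14 counts in CK1i, against 0, 3 and 12 in CTRL. Ifit1, Ifit3, Oas1a and Gbp2 have near-identical copies in the genome that could share their reads, so these counts are uncertain.

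Among the other antiviral effectors Xaf1, which encodes an antagonist of the apoptosis inhibitor XIAP, had groups apart. It had 4.28, 5.22 and 7.62 CPM in CK1i, against 3.905, 3.99 and 3.34 CPM in CTRL, from 79 counts in all. Its log2 fold change was 0.59 ± 0.38 (SE; edgeR, adjusted p = 1), and 0.34 without CK1i replicate 3. With Gbp3 this makes 2 of 35 tested members without overlap, 5.71%, beside 9.70% of all tested genes. Rsad2, the gene of viperin, an enzyme that makes a chain-terminating nucleotide, had 3.29, 2.61 and 15.2 CPM in CK1i, against 4.615, 6.39 and 6.01 CPM in CTRL. A single library held its high value, CK1i replicate 3 with 38 counts, and the other CK1i libraries lay below all CTRL libraries.

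Bst2 encodes tetherin, which holds budding virus at the cell membrane, and had the lowest log2 fold change of the members, -0.39 ± 0.25 (SE; edgeR, adjusted p = 1). It had 18.4, 21.5 and 22.1 CPM in CK1i, against 17.75, 25.95 and 37.1 CPM in CTRL, so CTRL held both its lowest library, replicate 1, and its highest, replicate 3. Without CTRL replicate 1 the log2 fold change was -0.62 for Bst2 (edgeR, adjusted p = 0.8) and -0.42 for Lgals3bp, a secreted glycoprotein gene (adjusted p = 0.83), both at an unadjusted p under 0.05. With all libraries Lgals3bp had -0.25 ± 0.20. Ifi27l2a, a small membrane protein gene, had -0.24 ± 0.19, and -0.43 without CK1i replicate 3 (adjusted p = 1 in edgeR), also at an unadjusted p under 0.05. Isg20, an exonuclease gene, and Ifi35, a regulator of interferon signalling, had -0.30 ± 0.26 and 0.04 ± 0.18. Samhd1, whose enzyme degrades nucleotides and so restricts retroviruses, had 439, 494 and 448 CPM in CK1i, against 419.6, 439 and 497 CPM in CTRL, a log2 fold change of 0.03 ± 0.14 with an interval of -0.27 to 0.32.

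Of the ubiquitin and ADP-ribose enzymes that could be tested, Trim25, Parp9, Dtx3l and Parp14 had small positive log2 fold changes. Trim25, a ubiquitin ligase gene of the RIG-I pathway, had 215, 270.1 and 203 CPM in CK1i, against 198, 234 and 225 CPM in CTRL. The groups overlapped, and its log2 fold change was 0.07 ± 0.15 (SE; edgeR, adjusted p = 1). Parp14, an ADP-ribosyltransferase gene, had 43.1, 54.5 and 56.95 CPM in CK1i, against 47.9, 41.9 and 37.1 CPM in CTRL, a log2 fold change of 0.28 ± 0.17. Parp9 and its partner Dtx3l, a ubiquitin ligase gene, had 0.11 ± 0.17 and 0.12 ± 0.15. Parp9, with 531 counts, and Dtx3l, with 1147, overlap on opposite strands.

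The peptide loading genes differed between the groups by less than their spread. Tap1 and Tap2 encode the transporter that carries peptides to MHC class I, and Tapbp encodes tapasin, which holds class I to it. Tapbp had 417, 401 and 352.5 CPM in CK1i, against 335, 429.9 and 504 CPM in CTRL, and the CTRL libraries enclosed the CK1i range (log2 fold change -0.12 ± 0.16, SE; edgeR, adjusted p = 1). Tap1 had 190.2, 188.5 and 166 CPM in CK1i, against 150.5, 177 and 222 CPM in CTRL, with a log2 fold change of -0.02 ± 0.16. Tap2 had 37.5, 48.6 and 52.1 CPM in CK1i, against 41.2, 55.9 and 18.0 CPM in CTRL, with 0.27 ± 0.36. CTRL replicate 3 was the highest library for Tap1 and Tapbp and the lowest for Tap2. Tap1 overlaps Psmb9 on the opposite strand, with 2431 counts beside 3103, and Tapbp overlaps Zbtb22 on the same strand, with 496 beside 6904.

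Across the libraries the members most often had their highest value in CK1i replicate 3. This was so for 13 of the 35 tested members, 37.1%, and 0 had their lowest value there (4 without CTRL replicate 1). Of all tested genes 15.9% were highest and 15.9% lowest in that library. CK1i replicates 1 and 2 were highest for 2 members each. CTRL replicate 1 was the lowest library for 12 members, 34.3%, beside 21.8% of all tested genes. Of the 7 members with counts too low to test, 6 were also highest in CK1i replicate 3, Ifit2 being the exception. No share of other untested genes was taken to set beside this. Iigp1 was highest there with only 2 counts. Before TMM scaling 1 count was worth 0.405 CPM in that library, the most of any, closely followed by 0.404 CPM in CTRL replicate 2. Averaged over the tested members, log2 CPM was 5.13, 5.06 and 5.41 in CK1i, against 5.13, 5.19 and 5.15 in CTRL, replicates 1 to 3. CK1i thus held the highest and the lowest library. The median log2 fold change of the tested members was -0.030 without CK1i replicate 3 and 0.088 without CK1i replicate 1.

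Some genes known mainly as targets of type I interferon stood out in CK1i replicate 3, and were picked for that after their values were seen. Rsad2 had 15.2 CPM there, against at most 6.39 CPM in any other library. Ifit3 had 8.02 CPM, against at most 3.67 CPM, and Usp18 5.21 CPM, against at most 3.19 CPM. By role, CK1i replicate 3 was the highest library for 4 of 6 sensors, 2 of 5 GTPases, 2 of 8 antiviral effectors, 2 of 5 ubiquitin and ADP-ribose genes, the feedback gene Socs1, 1 of 3 OAS genes, 1 of 4 transcription factors and 0 of 3 peptide loading genes. CTRL replicate 3 was the highest library for 4 of the 8 effectors, and Isg15, Oas2, Oas3 and Irf7 were highest in CTRL libraries. The members did not all vary together: over the 595 pairs of tested members the median Pearson correlation across the 6 libraries was 0.12, with quartiles of -0.25 and 0.48.

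**Figure D3:**
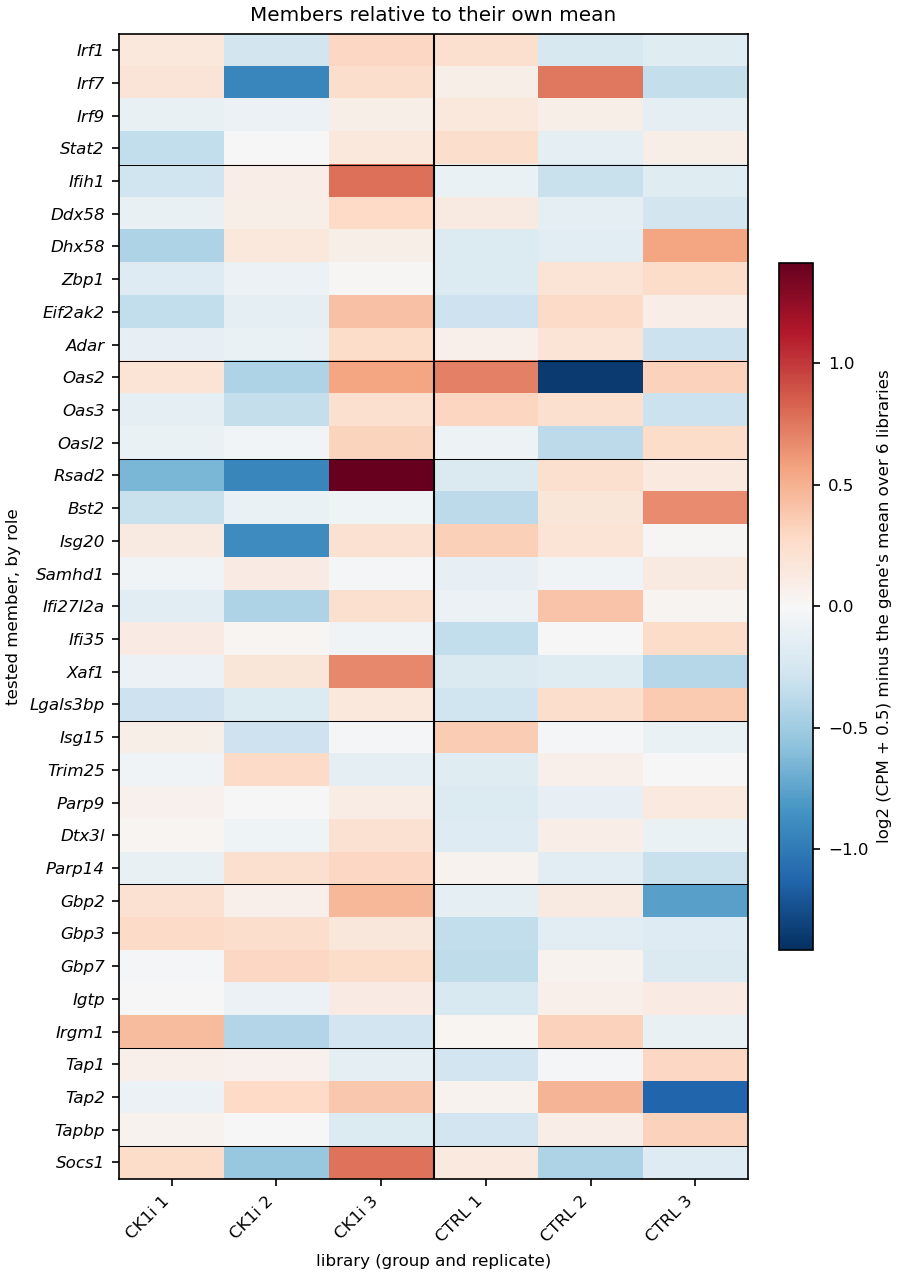
Each tested member's log2 (CPM + 0.5) minus its own mean over the 6 libraries, CK1i libraries left of CTRL libraries, with lines between the role groups. The column of CK1i replicate 3 is mostly red, most of all for Rsad2, and the Gbp3 row is red in all CK1i libraries and blue in all CTRL libraries.

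**Figure D4:**
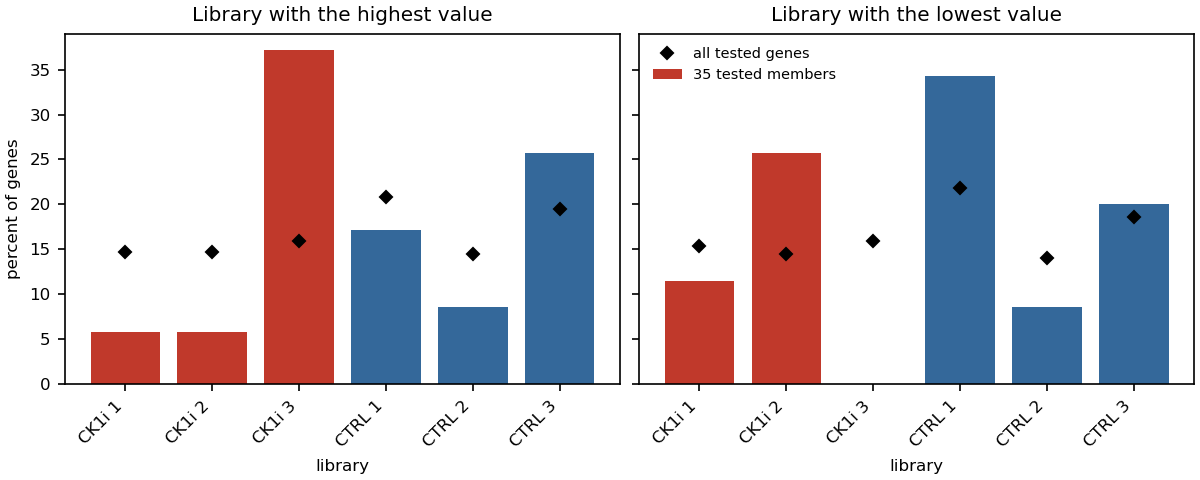
Share of the 35 tested members, in percent, with their highest (left) or lowest (right) value in each library, CK1i bars in red and CTRL bars in blue; diamonds give the same share for all tested genes. CK1i replicate 3 is the highest library for 37.1% of the members and the lowest for 0.

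The windows of Rsad2 and Ifit3 are shown beside those of the Gbp genes because both stood out in CK1i replicate 3. Rsad2 has 1 ISRE core, 119 bases before its start, and Ifit3 has 3, at 155, 121 and 102 bases.
Rsad2, chr12:26456403-26456702, minus strand: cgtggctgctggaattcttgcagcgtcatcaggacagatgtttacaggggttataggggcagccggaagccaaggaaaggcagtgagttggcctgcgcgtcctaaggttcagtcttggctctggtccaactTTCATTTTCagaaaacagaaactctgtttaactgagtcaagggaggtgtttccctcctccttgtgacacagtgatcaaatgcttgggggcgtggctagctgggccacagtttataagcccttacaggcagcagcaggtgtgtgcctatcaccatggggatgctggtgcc
Ifit3, chr19:34583279-34583578, plus strand: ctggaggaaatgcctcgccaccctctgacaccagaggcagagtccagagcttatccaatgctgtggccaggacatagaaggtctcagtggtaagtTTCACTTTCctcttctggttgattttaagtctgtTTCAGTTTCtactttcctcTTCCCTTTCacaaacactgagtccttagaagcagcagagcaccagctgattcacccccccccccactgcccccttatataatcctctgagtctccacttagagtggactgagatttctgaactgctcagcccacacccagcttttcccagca

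Of the 44 members 34 matched the promoter table, with 42 windows. An ISRE core stood in 20 of these 34 genes, 58.8%, beside 9.76% of the 27025 genes in the table, and a GAS motif in 11, 32.4%, beside 9.55%. Both motifs stood in 6. The 16 tested members with an ISRE core had a median log2 fold change of 0.04 and the 12 without one 0.01. CK1i replicate 3 was the highest library for 8 of the 16 and for 4 of the 12. The 9 tested members with a GAS motif had a median of 0.02 and the 19 without one 0.07, and CK1i replicate 3 was the highest library for 4 of the 9 and 8 of the 19. A match shows that the letters are there and nothing about binding.

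**Figure D5:**
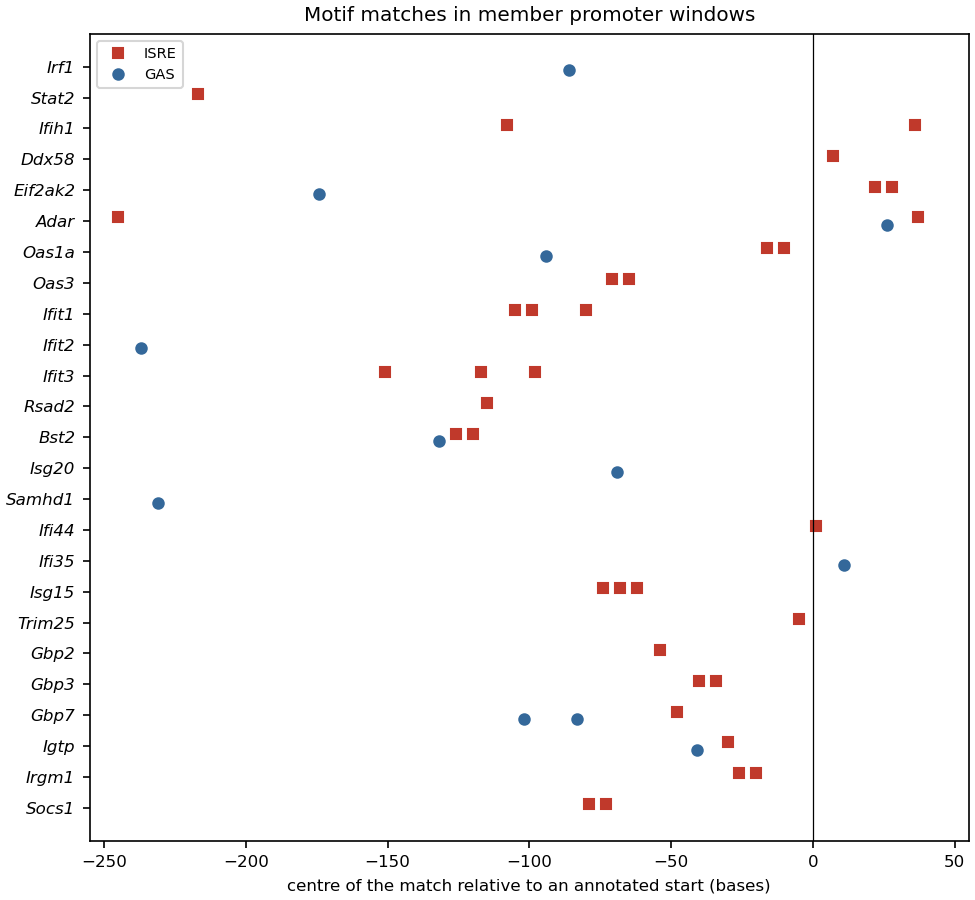
Position of each ISRE core (red squares) and GAS motif (blue circles) in the promoter windows of members with a match, in bases from an annotated start, shown by the vertical line. Points mark the centre of each match. Counted from their first base, the ISRE matches of Gbp2, Gbp3 and Gbp7 lie 38 to 58 bases before the start, and those of Ifit3 102 to 155 bases before it.

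Beyond the members, 156 other genes of the interferon pathway were read for the same contrast. Of the 106 that could be tested, 0 passed the threshold in edgeR, limma-voom or DESeq2. Values in CK1i were higher for 65 and lower for 41, which is 61.3% higher beside 48.8% of all tested genes. Their median log2 fold change was 0.04, beside -0.01 for all tested genes. An unadjusted p under 0.05 in edgeR was reached by 3, or 2.83%, beside 4.70% of all tested genes. Transcripts of the interferons themselves were not detectable at this depth. All 10 interferon genes read, among them Ifnb1, Ifng and 4 Ifna genes, had 0 counts in every library. That allows 0.176 CPM for each as an average over all libraries, and more in any single library. The receptor genes were present, with log2 fold changes of 0.20 ± 0.21 for Ifnar1, -0.19 ± 0.20 for Ifnar2, -0.13 ± 0.14 for Ifngr1 and 0.18 ± 0.25 for Ifngr2 (SE).

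Cish, a cytokine-induced inhibitor of STAT5 signalling, had the smallest p of the receptor and signalling list, with 9.21, 5.545 and 12.8 CPM in CK1i, against 2.485, 5.99 and 2.67 CPM in CTRL. CTRL replicate 2 lay above CK1i replicate 2, and the log2 fold change was 1.31 ± 0.42 (SE; edgeR, adjusted p = 0.84). Socs3, a related inhibitor, had 0.51 ± 0.35. Upstream of interferon the smallest p belonged to Irak4 and Ikbke, kinase genes, and Irf3, a transcription factor gene, with 0.21 ± 0.16, 0.25 ± 0.21 and -0.13 ± 0.14. Among the remaining IRF genes and their binding partners they belonged to Irf2bp2, Irf2bpl and Irf8, with -0.20 ± 0.16, 0.21 ± 0.24 and -0.22 ± 0.28.

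Among 68 other tested interferon-stimulated genes Ifi203, of the PYHIN family of DNA-binding proteins, had 148, 171 and 160.0 CPM in CK1i, against 141, 98.2 and 121.5 CPM in CTRL. Its log2 fold change was 0.41 ± 0.15 (SE; edgeR, adjusted p = 0.94). Oas1b, of the OAS family, had 1.645, 4.57 and 4.81 CPM in CK1i, against 7.455, 6.39 and 7.345 CPM in CTRL, a log2 fold change of -0.96 ± 0.39 (edgeR, adjusted p = 1). All CK1i libraries lay above the CTRL libraries for Ifi203 and below them for Oas1b, and both genes have close relatives that could share their reads. Of the 68 genes 5 had groups without overlap, 7.35%, beside 9.70% of all tested genes. Trim30c, of the TRIM family, had 0.84 ± 0.41.

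Markers of other cells were read because T cells, NK cells and dendritic cells also make or answer interferon. All 12 T-cell markers had counts, and their sum was 119.7 to 176.5 CPM in the CK1i libraries, against 108 to 132 CPM in the CTRL libraries. Most of it was Lck, a kinase gene that CLL cells also express; without Lck the sums were 2.61 to 23.7 CPM in CK1i, against 4.39 to 12.35 CPM in CTRL. Both sums were highest in CK1i replicate 3, the library where the members stood highest, and their part in that result was not tested. NK markers summed to 0.802 to 1.96 CPM in CK1i, against 0.710 to 1.00 CPM in CTRL, with Ncr1 and Gzmb at 0 counts. Monocyte and macrophage markers summed to 54.8 to 61.2 CPM in CK1i, against 47.1 to 62.5 CPM in CTRL, with Cd14 and Fcgr1 at 0 counts. Within that list Cd68, a macrophage lysosomal gene, had 34.9, 31.0 and 32.5 CPM in CK1i, against 20.9, 25.15 and 23.7 CPM in CTRL, with the groups apart as for Gbp3. Its log2 fold change was 0.50 ± 0.18 (SE; edgeR, adjusted p = 0.93), at an unadjusted p under 0.05. Ly6c2, Bst2, Irf8 and Irf4 were left out of the sums because they are interferon-stimulated or IRF genes. Ly6c2, a monocyte marker, had 31.3, 7.50 and 59.8 CPM in CK1i, against 18.1, 47.5 and 18.0 CPM in CTRL, and was highest in CK1i replicate 3. The part of Cd68 and Ly6c2 in the members' values was not tested. Plasma cell markers, led by Jchain, summed to 468 to 1295 CPM in CK1i, against 863 to 1603 CPM in CTRL. Neutrophil and erythroid markers summed to at most 4.28 and 6.52 CPM in a CK1i library, against at most 0.399 and 8.01 CPM in a CTRL library.

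All 8 dendritic cell markers that were summed had counts, and their sum was 498 to 537 CPM in the CK1i libraries, against 366 to 429.5 CPM in the CTRL libraries, with the groups apart as for Gbp3. Nearly all of it was Wdfy4, which B cells express too and whose log2 fold change was 0.38 ± 0.14 (SE; edgeR, adjusted p = 0.93). Without Wdfy4 the sums were 4.28, 4.89 and 4.01 CPM in CK1i, against 2.84, 1.597 and 4.34 CPM in CTRL, which overlap. Irf8, the dendritic marker left out of the sum, had 146, 162 and 86.6 CPM in CK1i, against 119.6, 129.7 and 212 CPM in CTRL, highest in CTRL replicate 3. Siglech, which marks plasmacytoid dendritic cells, had 1 count in CK1i replicate 2 and 1 in CTRL replicate 3. The summed plasmacytoid markers stood at 2439 to 2726 CPM in CK1i, against 2416 to 2455 CPM in CTRL. Most of this sum was Tcf4 and Ly6d, which averaged 1237 and 1183 CPM over all libraries, while Klk1 had 1 count and Cox6a2 5. Without Tcf4 the sums were 1178 to 1399 CPM in CK1i, against 1088 to 1283 CPM in CTRL. Both plasmacytoid sums were highest in CK1i replicate 3, where the members stood highest. Without Tcf4, CK1i replicate 1 was close to it, at 1397 against 1399 CPM. That sum was nearly all Ly6d, which had 1286, 1070 and 1346 CPM in CK1i, against 1012, 1221 and 1164 CPM in CTRL. Ccr9, the next marker by level, was lowest in CK1i replicate 3. It had 100.7, 100.8 and 44.9 CPM in CK1i, against 66.4, 45.5 and 101.5 CPM in CTRL. The part of these dendritic and plasmacytoid markers in the Gbp values or in that library's values was not tested. In such bulk libraries fewer cells of a type and less RNA per cell cannot be told apart.

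The 5 genes outside these lists whose log2 CPM over the 6 libraries was most like the members' mean z score were Tspoap1, Psmg3, Lyrm2, Foxo3 and Cptp, with Pearson correlations of 0.983, 0.983, 0.977, 0.970 and 0.967. Tspoap1 had 10.5, 8.81 and 22.5 CPM in CK1i, against 8.52, 12.4 and 10.35 CPM in CTRL, and Lyrm2 had 13.8, 14.0 and 28.1 CPM in CK1i, against 14.2, 19.96 and 17.7 CPM in CTRL. Both were highest in CK1i replicate 3. With 6 libraries and 1 of them high these correlations are a description and carry no test.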

How the data were processed

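Values were taken from the deposited table of whole-number counts per gene, which the authors produced. Per the labels' protocols, a QuantSeq FWD kit with a UMI module was used. The submitters' processing notes list UMI-tools 1.1.1, Trimmomatic 0.36, STAR 2.7.3a, featureCounts 1.6.3 and GRCm38.p6, without roles. No source used here says whether UMIs were collapsed or which strand was counted; without collapse, counts are not independent molecules, and floors cover counting error only. Levels were not divided by gene length, since 3' tags do not scale with it, and served to choose genes for full values but are not otherwise compared between genes.

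The whole table was fitted with edgeR 4.0.16 (R 4.3.3) after filterByExpr (minimum count 10, minimum total 15) and TMM scaling. The quasi-likelihood F test was robust and two-sided, with Benjamini-Hochberg adjustment over 10067 genes; the SE is the log2 fold change over the root of F. The fit was checked on simulated counts. Alternatives were DESeq2 1.42.0, limma-voom (limma 3.58.1), other scalings and filters, and leaving out each library.

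The members, lists and tests were chosen with earlier results of these data known. By rule, library values in full go to members at an unadjusted p under 0.05, members without overlap and the highest levels (the top 5 and the top of each role); each pathway list gives its 3 smallest p, except for a result that is not reported here. Other full values were chosen after they were seen. Gene coordinates are from GENCODE M21, promoters from RefSeq; of 44 members 20 overlap another gene, 10 of them one with at least 10 counts.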

Additional observations from a re-analysis of the deposited data

How the results depend on the processing

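No member was called under any of the 12 alternatives. Over all genes the calls were 2 higher and 1 lower with no filter, 6 higher and 2 lower by DESeq2, and 0 to 1 higher and 0 to 1 lower with a library left out. Members at an unadjusted p under 0.05 numbered 1 to 3 higher and 0 to 2 lower with a library left out, and 2 higher by DESeq2, where Gbp7 was not among them; Gbp3 was among them under every alternative. The median log2 fold change of the members was -0.030 to 0.088 with a library left out, below 0 without CK1i replicate 3 or CTRL replicate 1 (-0.013), and 0.019 to 0.056 otherwise. CK1i replicate 3 was the highest library for 14 members in unscaled CPM and 18 without CTRL replicate 1 (51.4%, beside 21.2% of all tested genes), where it was also the lowest library for 4 members, beside 22.0% of all tested genes. The stricter ISRE core, with 1 more A, stood in 17 of the 34 member genes, 50%, beside 3.99% of the 27025 genes with promoters.

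Among genes named for their level, log2 fold changes near 0 changed sign with single libraries left out: Samhd1 -0.03 to 0.10, Tapbp -0.26 to 0.03, Irf1 -0.00 to 0.28, Trim25 -0.07 to 0.14, Igtp -0.08 to 0.08 and Oasl2 -0.05 to 0.29; the cause was not tested. Xaf1 could not be tested at a minimum of 5 CPM in 3 libraries. No paired analysis was possible because the labels give the groups no shared replicate numbers. Depth, with 1 count worth 0.322 to 0.405 CPM before TMM scaling, limits what can be said of the 9 members that were not tested.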
